A study of Mus musculus with 6 samples.

Results

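The probes described here are those whose ID begins with A_30_P on a mouse expression array. On this array design that ID series holds probes for long intergenic noncoding RNAs (lincRNAs). All rows with this prefix were taken, with no filter on level, which gave 4460 of 56605 expression probes. The files pair no probe with a gene, transcript, position or sequence, so the assignment to lincRNAs rests on the ID series and was not checked against an annotation. Individual probes are given by ID.

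Long intergenic noncoding RNAs are transcribed from loci between protein-coding genes and encode no known protein. Many are spliced and polyadenylated like messenger RNAs, but they are usually less abundant and more restricted to particular cell types. Some act in the nucleus on transcription or chromatin, others in the cytoplasm on the stability or translation of messenger RNAs, and for most no function is known. In human lymphatic endothelial cells the lincRNA LETR1 is known to regulate proliferation and migration.

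The arrays were hybridised with Cy3-labelled cRNA from lymphatic endothelial cells, which line the vessels that drain fluid and immune cells from tissues. The labels call them a cell line from mouse. One group of 3 samples received 300 μg/ml monosodium urate (MSU), the crystal deposited in joints in gout, for 24 hours. The other 3 samples received phosphate-buffered saline (PBS) for 24 hours, and no genotype, passage or clone is given for either group. Because probes carry no gene names, endothelial and lymphatic markers could not be read. The labels leave unstated whether the 3 replicates were separate cultures. The p-values below therefore cover the spread between these arrays, and that spread may be technical.

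Values are log2 normalized intensities on a scale that runs from 1.47 to 18.2 and is the same on every array. The lincRNA probes lay low on it. Their mean level over the 6 arrays had a median of 3.82 and quartiles of 1.95 and 6.35, against a median of 5.01 and quartiles of 1.83 and 9.48 for the other 52145 expression probes. The difference was in the upper part of the scale. A mean level of 8 or more was reached by 620 lincRNA probes, 13.9% of them, against 33.3% of the other probes. At 12 or more the shares were 2.49% of the lincRNA probes, 111 in number, and 11.9% of the others. Of the 5 other ID series, only A_66_P had a lower median, at 3.28, and the remaining 4 lay between 5.06 and 7.43. All lincRNA probes together carried 1.79% to 1.82% of the linear signal of an MSU array and 1.76% to 1.88% of that of a PBS array, and these ranges overlapped. Signals of different probes depend on their sequence, so these figures describe signal and do not rank transcripts by abundance.

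The array has no detection flags in the table. A background limit of 2.56 was therefore taken, which is the 95th percentile over 109 control rows (ERCC and ETG in their names). Their role is not stated, so the limit is an assumption. Above it lay 65.0%, 65.2% and 66.0% of the lincRNA probes on MSU replicates 1 to 3, and 65.8%, 65.9% and 65.3% on PBS replicates 1 to 3. The groups overlapped. The share among the other probes was 66.1% to 66.2% on every array, so that by this limit lincRNA probes were above background about as often as the rest, although few of them were bright. That likeness depends on the limit. The 95th percentile on PBS replicate 1 alone was higher, at 3.60, and above it lay 54.2% of the lincRNA probes and 58.7% of the others. On the other arrays, with their own limits of 2.23 to 2.58, the shares were 64.8% to 69.8% and 66.0% to 68.5%. A total of 2402 lincRNA probes, 53.9%, lay above the limit on all 6 arrays, against 58.7% of the other probes. On no array above it were 926 lincRNA probes, 20.8%, against 24.1% of the others. The remaining 1132, 25.4%, were above it on some arrays only, against 17.1% of the others.

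Few lincRNA probes crossed the limit with treatment. On all 3 MSU arrays and no PBS array 9 lincRNA probes were above it, 0.202% of the class, against 0.267% over all expression probes. In the opposite direction, on all 3 PBS arrays and no MSU array, there were 7, or 0.157%, against 0.161% over all expression probes. Both shares were near or under those of the whole array. Among other probes weighted to the levels of the lincRNA probes, as described below, they were 0.422% and 0.244%. At like levels lincRNA probes thus crossed the limit less often in both directions.

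Replicate arrays differed more over lincRNA probes than over other probes of the same level in the median of the replicate SD, except between levels of 2 and 4. Levels were compared by sorting probes into classes of mean level and weighting the other probes to the distribution of the lincRNA probes over classes 1 log2 unit wide. The median SD between replicate arrays, pooled over both groups, was 0.27 on the log2 scale for the lincRNA probes and 0.23 for other probes at the same levels. Among the 620 lincRNA probes at a level of 8 or more it was 0.14 against 0.11. In that range the lincRNA median was 0.13 over the MSU arrays and 0.13 over the PBS arrays, while the other probes at these levels had 0.11 over the MSU arrays and 0.10 over the PBS arrays. The excess was thus present in both groups.

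Under a level of 2, at the floor of the scale, the median SD was 0.18 for 1170 lincRNA probes and 0.10 for the others. Between 2 and 4, where 1143 lincRNA probes lay, 25.6% of the class, it was 0.64 for both. The gap in spread widened from the class of 4 to 6 up to that of 12 to 14. Between 4 and 6 the median SD was 0.28 for 887 lincRNA probes and 0.26 for the others, and between 6 and 8 it was 0.18 for 640 lincRNA probes and 0.17 for the others. Between 10 and 12 it was 0.13 for 165 lincRNA probes against 0.10, and between 12 and 14 it was 0.12 for 75 lincRNA probes against 0.08. Probes with an SD of 0.3 or more at a level of 8 or more numbered 64 in the class, 10.3% of those at that level, against 4.30% of the other probes there. The excess came from no single array. The median distance of a lincRNA probe from its group mean was 0.16, 0.12 and 0.16 on MSU replicates 1 to 3 and 0.14, 0.13 and 0.16 on PBS replicates 1 to 3. For other probes at the same levels it was 0.14, 0.11 and 0.13 on the MSU arrays and 0.12, 0.11 and 0.14 on the PBS arrays, so that lincRNA probes lay farther from their group mean on each of the 6.

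Correlations of whole profiles are given as a description across probes, which share the arrays and are not independent. Over the 2402 lincRNA probes above the limit on all 6 arrays, Pearson's r ranged from 0.984 to 0.988 among the MSU arrays and from 0.984 to 0.990 among the PBS arrays. Between an MSU and a PBS array it was 0.972 to 0.982, lower than every value within a group. The 30624 other probes above the limit on all arrays, which are brighter, gave 0.994 to 0.997 among the MSU arrays, 0.995 to 0.997 among the PBS arrays and 0.986 to 0.989 between groups. Over all 4460 lincRNA probes, dim ones included, the range between groups was 0.970 to 0.980 and overlapped the ranges within groups, 0.978 to 0.983 for MSU and 0.974 to 0.982 for PBS. Over all 52145 other probes the values were 0.992 to 0.994 for MSU and 0.992 to 0.994 for PBS, and those between groups, 0.988 to 0.991, lay below them. By this measure treatment separated the arrays over lincRNA probes with signal and over the other probes, but not over the whole lincRNA class.

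The treatment comparison was fitted with limma over all 56605 expression probes at once, two-sided, with Benjamini-Hochberg adjustment over all of them. At an adjusted p under 0.05, 284 lincRNA probes, 6.37% of the class, differed between MSU and PBS, against 11.5% of all expression probes. Of these 123 were higher with MSU, 2.76% against 5.92% of all expression probes, and 161 were lower, 3.61% against 5.53%. Other probes at the levels of the lincRNA probes were called in 8.99%, with 4.93% higher and 4.06% lower. At like levels the class was called less often, and with these values the shortfall was larger among rises. The split depends on the scaling. When the changes of lincRNA probes were taken relative to the median change of other probes of the same level class, 142 rose and 132 fell, together 274, and the 2-fold calls were 50 rises and 22 falls. A larger replicate SD went with a lower called share in each level class from 4 to 14, but not in every class. Between 2 and 4 the median SD was 0.64 for both, with 1.31% of lincRNA probes and 3.73% of the others called. At 14 and over it was 0.11 against 0.07, with 19.4% and 19.5% called. Under 2 it was 0.18 against 0.10, with 0.34% and 0.23% called. Whether the SD had a part in the called share was not tested. No set test was made, so these are shares side by side.

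Most of the called lincRNA probes were above the assumed background limit on every array. Of the 284, 268 lay above the background limit on all 6 arrays, 13 on some and 3 on none. The 123 rises had mean levels from 1.96 to 15.0 with a median of 7.04, and log2 changes from 0.24 to 4.52 with a median of 0.74. The 161 falls had levels from 1.79 to 16.9 with a median of 7.23, and log2 changes from −0.26 to −2.32 with a median of −0.64. In folds, the medians were 1.66 for lincRNA rises and 1.56 for lincRNA falls, against 1.61 for rises and 1.41 for falls among the other called probes. None of the 284 had MSU and PBS values that overlapped. At an unadjusted p under 0.05 there were 734 lincRNA probes, 16.5%, against 23.5% of all expression probes. Over the whole class, values did not overlap for 917 probes, 20.6%, against 29.6% of all expression probes and 25.4% of other probes at the same levels. Among these 391 were higher with MSU, 8.77% against 13.7% over all expression probes, and 526 were lower, 11.8% against 15.9%.

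By level, the called share of lincRNA probes was 1.31% between 2 and 4, 7.44% between 4 and 6, 13.8% between 6 and 8, 17.4% between 8 and 10, 19.4% between 10 and 12 and 16.0% between 12 and 14. The other probes of these classes had 3.73%, 10.65%, 18.8%, 20.9%, 25.4% and 28.3%. The lincRNA share was lower in each of these classes. At 14 and over, where the class has 36 probes, 7 were called, 19.4%, and the other probes had 19.5%. Under 2, both shares were below 1% (4 of 1170 lincRNA probes and 34 of 14744 others).

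Larger changes were also called less often in the class, and fewer of them were rises. Changes of at least 2-fold were called for 73 lincRNA probes, 1.64% against 2.28% over all expression probes and 2.84% of other probes at the same levels. There were 44 such rises, 0.987% against 1.72% over all expression probes, and 29 such falls, 0.650% against 0.555%. Other probes at the levels of the lincRNA probes had 2.09% such rises and 0.746% such falls. The falls were thus more frequent in the class than over all expression probes and less frequent than at like levels. Rises thus made up 60.3% of these lincRNA calls and 76.6% of those among the other probes. At 3-fold there were 13 rises and 3 falls among the 4460 lincRNA probes, against 374 and 71 among the 52145 others. At least 4-fold were 6 lincRNA rises and 1 fall, 0.157% of the class against 0.461% of all expression probes and 0.700% of other probes at the same levels. At 8-fold 1 lincRNA rise was left, against 64 rises and 3 falls among the 52145 others. The split of the lincRNA calls moved with single arrays. Without MSU replicate 3 the 2-fold lincRNA calls were 25 rises and 28 falls, against 721 and 285 over all expression probes. Counting lincRNA calls of any size, falls outnumbered rises with all arrays. Without PBS replicate 1 there were instead 76 rises and 70 falls, and without PBS replicate 2 there were 67 and 60. Rises thus went from 43.3% of the lincRNA calls to 52.1% and 52.8%. Over all expression probes they also went up, from 51.7% to 59.0% and 59.9%. Centring each array on 7 E1A spike-in rows gave 36 lincRNA rises and 16 falls, all of at least 2-fold. Over all expression probes this setting gave 781 rises and 199 falls, again all of at least 2-fold.

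A further 104 lincRNA probes, 2.33% of the class, had a fitted change of at least 2-fold and did not pass the threshold, against 1.59% of the other probes. Of these 59 had a higher and 45 a lower mean with MSU, their MSU and PBS values overlapped for 42, and 24 were above the background limit on all arrays. Their median replicate SD was 0.64, and their median level 2.90. The 2.33% and 1.59% were not matched on level. Levels of 2 to 4, where the median SD was 0.64 for both, held 25.6% of the lincRNA probes and 16.2% of the others.

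Over the class as a whole, changes were small and lay on both sides of 0. The median absolute log2 change was 0.23 for lincRNA probes and 0.22 for other probes at the same levels. The median signed log2 change, MSU minus PBS, was −0.04 for lincRNA probes and −0.01 for the others, with 42.8% of lincRNA probes and 46.4% of the others above 0. Over the 2402 lincRNA probes above the limit on all arrays it was −0.10, against −0.05 for other such probes at the same levels, and 37.3% against 44.3% were above 0. The members' own array medians show how far this carries. Over those 2402 probes, the median deviation from a probe's mean over the 6 arrays was −0.07, −0.06 and 0.01 on MSU replicates 1 to 3 and 0.08, 0.13 and −0.05 on PBS replicates 1 to 3. MSU replicate 3 lay above PBS replicate 3, so the groups overlapped. Without PBS replicate 2 the median change of the whole class was −0.01, and with arrays centred on the spike-in rows it was −0.01, while that of the others was then 0.02. Every array has the same distribution of values, so these changes are relative to the other probes.

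Among the calls with both groups above the background limit on every array, the largest rise was that of A_30_P01031842. Its log2 normalized intensity was 5.57, 6.10 and 6.06 on the MSU arrays, against 2.74, 3.52 and 3.91 on the PBS arrays. All MSU arrays lay above all PBS arrays, and the PBS values were the more spread. The means were 5.91 ± 0.29 with MSU and 3.39 ± 0.59 with PBS (SD, n = 3 each). On the log2 scale it rose by 2.52 (standard error 0.35), which is 5.74-fold (limma, adjusted p = 0.0155). It missed the threshold without PBS replicate 2 (limma, adjusted p = 0.0624), MSU replicate 2 (0.0669) or MSU replicate 3 (0.0668).

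Probe A_30_P01029285 came next, with 7.01, 6.77 and 6.80 on the MSU arrays, against 3.93, 4.50 and 4.84 on the PBS arrays. The MSU arrays lay close together and all above the PBS arrays. Means were 6.86 ± 0.13 with MSU and 4.42 ± 0.46 with PBS (SD, n = 3 each), and the rise was 2.44 on the log2 scale (standard error 0.25), which is 5.42-fold (limma, adjusted p = 0.00739).

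The largest fall under the same condition was that of A_30_P01030273. It had 5.29, 5.60 and 6.18 on the MSU arrays, against 7.39, 7.07 and 7.23 on the PBS arrays. The groups did not overlap, and here the MSU values were the more spread. Its means were 5.69 ± 0.45 with MSU and 7.23 ± 0.16 with PBS (SD, n = 3 each). The log2 change was −1.54 (standard error 0.25), a size of 2.91-fold (limma, adjusted p = 0.0246). The call was lost without PBS replicate 1, 2 or 3 or without MSU replicate 2, where the adjusted p was 0.0757 to 0.0950 (limma).

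Probe A_30_P01029719 fell from a brighter part of the scale, where replicates agree better. It had 10.0, 9.89 and 9.88 on the MSU arrays, against 11.2, 11.5 and 11.3 on the PBS arrays. The means were 9.92 ± 0.06 with MSU and 11.3 ± 0.15 with PBS (SD, n = 3 each), with no overlap. It changed by −1.40 on the log2 scale (standard error 0.09), a size of 2.64-fold (limma, adjusted p = 0.00256).

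The other 2-fold calls above the limit on all arrays ran in the same ranges. In all 38 rises met that condition, with log2 changes of 1.01 to 2.52, a median of 1.19 and levels of 4.04 to 12.2. The 23 falls had log2 changes of −1.01 to −1.54, a median of −1.15 and levels of 4.02 to 12.02. The rises thus reached farther than the falls.

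Every PBS array was at or under the background limit for 5 of the 44 rises, and every MSU array for 3 of the 29 falls. Their sizes are lower bounds, taken against the limit or the probe's own value where that is higher, array by array. Among the 5 rises the bound ran between at least 1.19-fold and at least 11.04-fold higher with MSU, and among the 3 falls between at least 1.11-fold and at least 2.02-fold lower. The highest bound belongs to A_30_P01031633, the only lincRNA probe with a fitted rise of 8-fold or more, chosen after its values were seen. It had 5.94, 6.17 and 5.97 on the MSU arrays, against 1.508, 1.502 and 1.506 on the PBS arrays. The PBS values lay at the floor of the scale, and the MSU values were near the MSU array medians of 6.07 to 6.11 for lincRNA probes above the limit on all arrays. Taken against the limit of 2.56, its level with MSU was thus at least 11.04-fold that with PBS (limma on the fitted change, adjusted p = 0.000486). The bound rests on that assumed limit and would be smaller against the 99th percentile of the control rows, 4.21.

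The largest fitted fall, also chosen after its values were seen, was that of A_30_P01028121, the only one of 4-fold or more. Its values were 2.36, 3.74 and 3.09 on the MSU arrays, against 5.70, 5.39 and 5.06 on the PBS arrays. One MSU array lay under the background limit, so the size of the fall is uncertain. The means were 3.07 ± 0.69 with MSU and 5.39 ± 0.32 with PBS (SD, n = 3 each). The fitted log2 change was −2.32 (standard error 0.40; limma, adjusted p = 0.0280). It did not pass without PBS replicate 1, 2 or 3 or without MSU replicate 3, with adjusted p of 0.0635 to 0.101 (limma).

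The brightest lincRNA probe did not pass the test. A_30_P01022075 had 17.1, 17.1 and 17.0 on the MSU arrays, against 17.0, 17.0 and 17.1 on the PBS arrays, and the groups overlapped. The fitted log2 change was 0.03 (standard error 0.05; limma, adjusted p = 0.804). The second brightest, A_30_P01026611, had 16.7, 16.8 and 16.7 on the MSU arrays, against 17.0, 17.0 and 17.1 on the PBS arrays. It was lower on every MSU array, with a log2 change of −0.30 (standard error 0.04), a size of 1.23-fold (limma, adjusted p = 0.0174). That call was lost without PBS replicate 1 or 2 or MSU replicate 3, with adjusted p of 0.0607 to 0.0654 (limma). Saturation flags were not used here, and levels this close to the top of the scale may understate differences.

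Log2 changes of probes with neighbouring ID numbers showed little correlation. Over 1194 pairs of lincRNA probes whose numbers differ by 1, Pearson's r of their log2 changes was 0.02, and over 1233 pairs that differ by 2 it was −0.05. Pairs that differ by 3 to 10 gave −0.05 to 0.05. The correlation of mean levels was 0.01 at a difference of 1 and −0.02 at a difference of 2. These are descriptions across probes read on the same arrays.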

How the data were processed

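Per the submitters' processing notes, Agilent Feature Extraction 10.7.1.1 was used. The authors deposited 1 column of log2 normalized intensities per array. No source used here gives the steps after scanning. The log base was taken as 2 from the range of values. The sorted columns differed by 0, as after quantile normalization. Of 56745 rows, 140 control rows were not tested. No probe could be matched to the RefSeq gene table (GRCm38.p6), so no gene, position or sequence is given. The number of arrays limits the precision.

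Groups come from the titles. All 56605 expression probes were fitted without a filter and without covariates (limma 3.58.1 in R 4.3.3, default eBayes), with Benjamini-Hochberg adjustment and a threshold of 0.05. Other probes were weighted over level classes of width 1 (Python 3.11.15). Named by rule were the 2 largest rises and 2 largest falls among calls with no overlap and all 6 arrays above the background limit, and the 2 brightest probes. The class, rules and limit were chosen with earlier results of these data known.

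On values simulated for the comparison over 56605 probes, the test recovered 24% of 100 lincRNA probes with a log2 change of 1 and 40% of 100 with a change of 2, dim ones included, with 4 false calls. It made 0 calls without any change. The data hold more calls than were simulated, so these shares need not apply. Deviations of same-numbered MSU and PBS arrays from their group means correlated at 0.07, 0.00087 and 0.23 across probes, and no pairing was used. Alternatives were other filters, scalings, weights, priors, limits and level classes, and each array left out in turn.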

Additional observations from a re-analysis of the deposited data

How the results depend on the processing

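The count of 284 called lincRNA probes was 274 to 402 under 8 alternatives that keep all arrays. These 8 were grouped by result, each count lying within 1.5 times of 284. Among them quantile normalization gave 284 again on columns that already had the same distribution. Outside that group, 76 were called at an adjusted p under 0.01 and 52 with arrays centred on the spike-in rows. Over all expression probes the count of 6482 became 2160 and 980 under these settings. Leaving out 1 array gave 127 to 244 lincRNA calls, lowest without PBS replicate 2. There were 130 without MSU replicate 2, 146 without PBS replicate 1 and 149 without MSU replicate 3. Over all expression probes the count fell likewise, to between 2977 and 5590, also lowest without PBS replicate 2. Of the 284 calls, 82 passed in all 6 of those fits. With the replicate number as a block 0 were called at either size (limma, 648 at an unadjusted p under 0.05), as over all 56605 probes. With the block and the 40th percentile filter, added after seeing the data, 138 were. The block rests on the numbers in the titles, and the labels state no pairing. MSU replicate 3 deviated most like PBS replicate 3 (correlation 0.23), and MSU replicate 1 most like PBS replicate 1 (0.07). MSU replicate 2 deviated most like PBS replicate 1 (0.20). Whether same-numbered arrays belong together was not tested. The count of 73 at least 2-fold became 32 with a filter at the 60th percentile of level, which leaves out dim probes, and 45 to 79 without 1 array. Rises were 69.2% of the lincRNA calls with spike-in centring, 53.9% at an adjusted p under 0.01 and 43.3% before. Over all expression probes they moved likewise, with 79.7%, 63.1% and 51.7%. No called probe that was tested changed sign, which the lack of overlap mostly fixes. The share above the limit, 65.5% over the arrays, was 69.9% with the 90th percentile of the control rows, 46.5% with the 99th and 64.8% with a limit per array, where PBS replicate 1 had 54.2%. It was 65.4% to 65.6% without 1 array. The called share of lincRNA probes minus that of others at their levels was −2.63 percentage points, −4.32 against A_51_P, −4.91 against A_65_P, −1.77 against A_66_P and −4.59 with the 40th percentile filter, added after seeing the data. Under that filter 2525 lincRNA probes were tested and 14.9% called. The excess in replicate SD was 0.036, and 0.061 against A_65_P. The median log2 change of −0.04 was −0.10 above the limit on all arrays, −0.011 with spike-in centring, added after seeing the data, and −0.056 to −0.0094 without 1 array, nearest to 0 without PBS replicate 2. The cause of these movements was not tested. Of the 4 probes named as largest by the rule, A_30_P01029285 and A_30_P01029719 lost their call only with the replicate block. Dim probes are the least precise, with a median SD of 0.64 between levels of 2 and 4.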
